A study of Mus musculus with 2 samples.

Results

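Adventitial-type fibroblasts were examined in orthotopic pancreatic tumours of mice, in 299 cells of the control library and 474 cells of the knockout library, 773 of the 26017 deposited cell barcodes. They were chosen by counts of unique molecular identifiers (UMIs), each of which stands for 1 captured RNA molecule. A member had at least 500 detected genes and at most 15% mitochondrial UMIs, at least 20 UMIs of Col1a1, Col1a2 and Col3a1 together, and at least 3 of Pdgfra and Dcn. It had no UMI of Ptprc or Pecam1, at most 2 of Rgs5, under 3 of Upk3b, Lrrn4 and Wt1, and at most 20 of Krt8, Krt18 and Krt19. Its UMIs of Clec3b, Dpt and Pi16 numbered at least 1 and at least as many as those of Acta2, Tagln and Postn.

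KPC pancreatic cancer cells had been implanted in the pancreas, and tumours were taken at day 21. Control mice were Porcnfl/fl littermates (labelled WT), and knockout mice were Csf1r-Cre;Porcnfl/fl, so both groups carried the floxed Porcn allele and only the knockout carried Cre. Csf1r-Cre is active in myeloid cells, and fibroblasts were not the cells it was meant to change. Sex and age are not given in the sources used here. Tumours of 5 mice were pooled for each genotype before digestion, which left 1 library per genotype and no replicate. Every difference below lies between 2 libraries. Exact 95% intervals, in parentheses, cover counting error only, and the spread between mice is unknown.

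Adventitial fibroblasts lie in the outer sheath of vessels and in the connective tissue around organs. They hold matrix in place, keep progenitors for other fibroblasts and speak to leukocytes through chemokines and complement. In pancreatic tumours, fibroblasts are commonly divided into contractile myofibroblastic cells near tumour cells and inflammatory cells farther away. Adult fibroblasts often keep expressing the homeobox and T-box genes of the place in the body where they arose.

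The control library held 11664 barcodes that passed the gene and mitochondrial limits, with 171485719 UMIs, and the knockout library held 10808 with 135857506 UMIs. Members contributed 3073007 and 4258576 UMIs, with a median of 8925 UMIs and 2848 genes per control cell and 8577 UMIs and 2976.5 genes per knockout cell. A doublet caller marked 0 control and 6 knockout members. The 2 libraries shared 46 barcodes, none of them between the members. Porcn, the gene meant to be deleted in myeloid cells, stood at 7.25 counts per 1000000 UMIs (CPM) in all other kept barcodes of control and at 4.74 in knockout. Which exons were removed is not given in the sources used here, so 3′ counts need not show the deletion.

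The genes of the rule are given as a description, since they chose the cells. Clec3b, a plasminogen-binding lectin-like protein, was found in 272 of 299 control and 436 of 474 knockout members. Dpt, the matrix protein dermatopontin, was found in 291 and 446, and Pdgfra, a receptor for platelet-derived growth factor, in 239 and 398. Pi16, a peptidase inhibitor that marks adventitial fibroblasts in many organs, had a UMI in 206 and 355 cells. Its level was 797 CPM in control and 963 CPM in knockout members, against 8.46 and 23.2 in all other kept barcodes. All 5 markers of the label were used by the rule, so their presence in the members is no check of it.

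Collagen I was lower in the knockout members, although it set only the lower limit of the rule. Col1a1 stood at 10961 CPM in control and 4345 in knockout, Col1a2 at 11102 and 5364, and Col3a1 at 18075 and 10435. Dcn, the proteoglycan decorin, stood at 8636 and 9263. Few cells lay close to the last condition or to the collagen limit. The median sum of Clec3b, Dpt and Pi16 was 32 UMIs in control and 27 in knockout, and that of Acta2, Tagln and Postn was 4 and 3. Of the members, 19 control and 15 knockout cells lay within 2 UMIs inside the last condition, and 17 and 8 fibroblasts lay within 2 UMIs outside it. Collagen sums of 20 to 30 were found in 16 and 34 members. Many more lay close to the limit of under 3 UMIs of Upk3b, Lrrn4 and Wt1. A Wt1 UMI was present in 102 control and 225 knockout members.

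Members made up 2.56% (2.28 to 2.87) of kept control barcodes and 4.39% (4.01 to 4.79) of kept knockout barcodes, a ratio of 1.71 (1.48 to 1.98). Outside the tumour cells, the share was 6.29% in control and 7.48% in knockout, a ratio of 1.19 (1.03 to 1.38). Here tumour cells are kept barcodes with over 20 keratin UMIs, no Ptprc and fewer than 20 collagen UMIs. The collagen condition had left 784 cells in each library. That on Pdgfra and Dcn then removed 78 control and 11 knockout cells, that on Upk3b, Lrrn4 and Wt1 250 and 169. The keratin condition removed 75 and 40, while the Ptprc condition went the other way, with 15 and 47. The ratio of 1.71 is thus one of cells that passed the rule, not of all collagen-bearing cells. The conditions before the last left 349 control and 508 knockout fibroblasts, of which 85.7% and 93.3% were members. The remaining 50 control and 34 knockout cells, in which Acta2, Tagln and Postn outweighed the adventitial genes, are called myofibroblast-leaning fibroblasts.

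UMIs were summed over the members of a library and compared as CPM for 9812 genes with at least 50 UMIs. Ratios are knockout over control on the log2 scale with 1 UMI added, as are all ratios with an interval below, and a gene is said to have risen or fallen only where it differed at least 2-fold. Of all genes, 295 rose (3.01%) and 147 fell (1.5%), with a median of 0.09. Centring on that median left 222 higher and 183 lower, which moved the higher share of calls from 66.7% to 54.8%. With single libraries these counts are descriptions and not tests. For 6552 genes the counting interval spanned 0.

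Of the 28 genes that differed most, 5 were homeobox or T-box genes that mark the position of mesenchyme in the body. Tbx15, a T-box factor of body wall and limb mesenchyme on chromosome 3 (99240381 to 99354259, GRCm38), was counted 91 times, in 47 control members, and 3 times, in 3 knockout members. Its level of 29.6 against 0.704 CPM gave a log2 ratio of -4.93 (-7.70 to -3.80). Hoxc8, on chromosome 15 (102990607 to 102994111), had 65 UMIs in control and 2 in knockout members, a log2 ratio of -4.85 (-8.57 to -3.58). Hoxc9, its neighbour at 102976439 to 102985099, stood at 16.6 and 0.939 CPM, and Emx2, a homeobox gene of the urogenital system and limb girdle, at 17.9 and 1.41 CPM. All 4 were therefore close to 0 in knockout members. All other kept barcodes had Hoxc8 at 27.1 and 20.1 CPM and Hoxc9 at 32.95 and 25.9 CPM. In the opposite direction, Nkx2-3, a homeobox gene of spleen and gut mesenchyme, stood at 17.9 CPM in control and 67.4 CPM in knockout members, with a log2 ratio of 1.90 (1.49 to 2.36). It had a UMI in 11.4% of control and 38.2% of knockout members.

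The 39 Hox genes were then gone through, a choice made after these values had been seen. Hox genes lie in 4 clusters, and the later members of each are used farther back along the body. Of the 39, 16 had enough UMIs, of which 1 rose and 5 fell, with a median of 0.40. The late Hoxc genes, Hoxc6 to Hoxc13, summed to 59.6 CPM in control and 4.70 in knockout members. The late Hoxa genes, Hoxa6 to Hoxa13, summed to 35.5 and 7.28 CPM. The early Hoxa genes stood at 46.2 and 74.9 CPM and the early Hoxb genes at 76.1 and 116.7. The late Hoxb genes, at 42.6 and 59.4 CPM, were not lower in knockout either, so the low values were not shared by every cluster or by all late genes. Hoxb5, the riser, went from 8.46 to 22.5 CPM. Hoxc6, Hoxa7 and Hoxd8 were the fallers besides Hoxc8 and Hoxc9, at log2 ratios of -2.48, -1.82 and -1.15, and Hoxa7 had only 15.6 CPM in control members against 39.7 in all other kept barcodes. Among other position genes, Tbx18 stood at 16.3 and 3.05 CPM, Shox2 at 21.5 and 4.46, and En1 at 18.2 and 5.64. Tcf21, a factor of visceral mesenchyme, went from 10.7 to 21.8 CPM. Barx1, a homeobox gene of stomach mesenchyme, had 54.3 CPM in control and 56.8 CPM in knockout.

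The position genes divided the cells within the control library too. A UMI of Tbx15, Hoxc8, Hoxc9, Hoxc10 or Emx2 was present in 106 of 299 control members, or 35.5% (30.0 to 41.2), and in 13 of 474 knockout members, or 2.74% (1.47 to 4.64). A UMI of Nkx2-3 or Barx1 was present in 88 control members, or 29.4% (24.3 to 35.0), and in 275 knockout members, or 58.0% (53.4 to 62.5). Both were present in 3 control cells, where the product of the 2 shares would give 31.2, and in 5 knockout cells, where it would give 7.54. Neither was present in 108 and 191 cells. Both sets of genes were chosen after their values had been seen.

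At equal depth the first set was still more frequent in control and the second in knockout members, while the order of the 2 sets within control was turned. After each cell was thinned to 2000 UMIs, which left 291 control and 459 knockout members and dropped 8 and 15, the first set was found in 9.62% and 0.654% and the second in 13.1% and 20.3%. No thinned cell had both, where the product of the shares would give 3.66 control and 0.608 knockout cells. T cells, which should lack these genes, were not thinned here, so their shares are not at the depth of the thinned members. At median depths of 3739 and 3813 UMIs, 2.58% of control and 1.92% of knockout T cells had the first set. The second was found in 0% and 0.769% of them. Tumour cells, also not thinned, carried the first set as well, in 72.4% of control and 71.1% of knockout cells. Their median depths were 16077 and 17196 UMIs. The part of free tumour RNA in the fibroblasts' counts was not tested further than by the levels given here. In the control fibroblasts of the first set, Tbx15 stood at 65.9 CPM against 9.17 in control tumour cells, and Emx2 at 39.1 against 0.701. Hoxc9 stood at 36.2 against 33.8 CPM there, and Hoxc10 at 13.04 against 19.6. These fibroblasts were picked for having such UMIs, which raises the first of each pair. The keratin gene Krt8 stood at 42.7 CPM in them and at 2308 CPM in tumour cells.

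**Figure D1:**
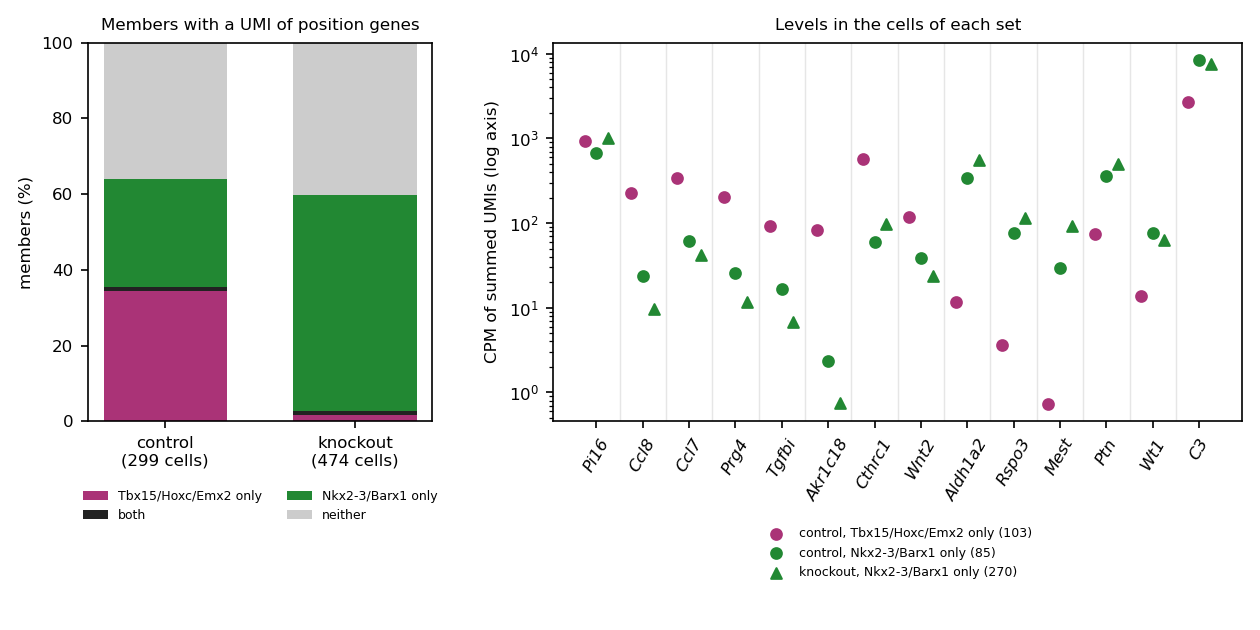
Left, the share of members (%) with a UMI of Tbx15, Hoxc8, Hoxc9, Hoxc10 or Emx2, of Nkx2-3 or Barx1, of both or of neither, in the control and knockout libraries. Right, levels of 14 genes (CPM of summed UMIs, log axis) in the 103 control cells with the first set only (circles), the 85 control cells with Nkx2-3 or Barx1 only (circles) and the 270 such knockout cells (triangles); for Ccl8 the 103 cells stand at 229 CPM, above the 85 at 23.6 CPM.

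The sequences before the start sites of 3 of the 28 genes that differed most are given to show what type of promoter each has. Nkx2-3 and Aldh1a2 were higher in knockout members and Ccl8 was higher in control members. Each sequence holds the 250 bases before the RefSeq start site on GRCm38.p6, read 5′ to 3′ on the plus strand. Capitals mark matches to CCAAT or TATAAA on either strand. They lie at chr19:43612075-43612324 for Nkx2-3, chr9:71215539-71215788 for Aldh1a2 and chr11:82114935-82115184 for Ccl8.
Nkx2-3: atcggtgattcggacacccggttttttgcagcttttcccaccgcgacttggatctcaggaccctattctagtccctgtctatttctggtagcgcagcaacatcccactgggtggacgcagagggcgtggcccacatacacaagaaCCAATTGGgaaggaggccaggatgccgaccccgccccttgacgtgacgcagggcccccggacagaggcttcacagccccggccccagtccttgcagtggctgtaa
Aldh1a2: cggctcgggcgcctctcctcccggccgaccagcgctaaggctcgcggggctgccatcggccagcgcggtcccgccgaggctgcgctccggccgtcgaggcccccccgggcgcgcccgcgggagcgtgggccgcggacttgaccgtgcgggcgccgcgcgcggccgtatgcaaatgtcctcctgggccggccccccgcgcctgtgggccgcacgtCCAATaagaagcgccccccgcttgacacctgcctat
Ccl8: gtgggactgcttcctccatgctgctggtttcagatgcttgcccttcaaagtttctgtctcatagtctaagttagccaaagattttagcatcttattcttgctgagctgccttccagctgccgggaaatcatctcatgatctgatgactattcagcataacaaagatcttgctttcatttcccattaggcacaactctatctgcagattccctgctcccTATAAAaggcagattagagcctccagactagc
The Nkx2-3 sequence had 60% G and C and 2 overlapping CCAAT matches, 1 on each strand, whose first bases lay at -105 and -102 from the start. That of Aldh1a2 had 77.6% G and C and 1 match at -36, while that of Ccl8 had 44.8% G and C and a TATAAA match at -32. Over 32851 RefSeq windows of the same length, 33.8% held CCAAT and 12.4% held TATAAA. Of the 28 genes that differed most, 20 had such a window.

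The fibroblasts with the 2 kinds of position gene differed in much more than those genes. In the 103 control cells with Tbx15, Hoxc8, Hoxc9, Hoxc10 or Emx2 alone, Ccl8 stood at 229 CPM, and in the 85 with Nkx2-3 or Barx1 alone at 23.6 CPM. Prg4, the joint lubricant protein, stood at 204 and 25.9 CPM, and Akr1c18, a hydroxysteroid dehydrogenase, at 82.6 and 2.36 CPM. Aldh1a2, which makes retinoic acid, had the reverse order, with 11.6 and 338 CPM. The control library alone thus held these contrasts, with 199 of 5795 genes at least 2-fold higher (3.43%) and 250 at least 2-fold lower (4.31%) in the first kind of cell. The cells were chosen with these data in view, and the 2 kinds differed in depth, with median UMIs of 12450 and 9104.

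Pi16 was within 2-fold, at 938 CPM in the first kind of control cell and 670 in the second, and so was Clec3b, at 2647 and 1983. Col1a1 was higher in the first, with 17055 against 5266 CPM, as was Cthrc1, a collagen-associated secreted protein, with 573 against 60.1. C3, the central complement protein, was lower in the first, with 2699 against 8500 CPM. Col15a1, a basement membrane collagen, had 71.0 and 273 CPM, and Ptn, the growth factor pleiotrophin, had 74.6 and 358 CPM.

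Knockout was then compared with control among the cells with Nkx2-3 or Barx1 alone, 270 against 85. The 2 genes were in unlike proportion in these sets, which may thus differ in their mix of cells. Nkx2-3 had a UMI in 37.6% of the control and 65.9% of the knockout cells, at 57.8 and 104.9 CPM. Barx1 stood at 196 CPM in the control and 89.9 CPM in the knockout cells. In this comparison 191 of 7608 genes were at least 2-fold higher (2.51%) and 39 at least 2-fold lower (0.513%) in knockout. Some risers and fallers over all members had enough UMIs both here and between the 2 kinds of control cell. Of 61 such risers, 13 were past 2-fold in the same direction here, and of 43 such fallers, 15 were. Mest rose from 29.5 to 92.2 CPM, with a ratio of 1.63 (1.05 to 2.30), and Fgf10 from 21.2 to 54.3 CPM, with a ratio of 1.33 (0.65 to 2.15). Aldh1a2 stood at 338 and 562 CPM and Rspo3 at 76.6 and 116 CPM, each less than 2-fold apart. Ccl8 fell from 23.6 to 9.74 CPM, with a ratio of -1.23 (-2.17 to -0.36), and Prg4 from 25.9 to 11.6. Col1a1 had 5266 and 4321 CPM, a log2 ratio of -0.29, where over all members it had been -1.33. C3 had 8500 and 7626 CPM. Cells are tied by the labels neither to a mouse nor to a place in or around the tumour. The genotype, the mice pooled and the tissue taken with each tumour can therefore not be told apart in the shares of the 2 kinds of cell, and every difference over all members holds this difference in shares.

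Over all members, the 28 genes that differed most by the bound of their interval nearest to 0 were 14 risers and 14 fallers. Mest, an imprinted gene active in growing mesenchyme, went from 17.6 to 91.1 CPM, with a ratio of 2.36 (1.96 to 2.81), and was found in 6.69% of control and 23.6% of knockout members. Aldh1a2 (chromosome 9, 71215789 to 71296243) went from 170 to 522 CPM, with a ratio of 1.62 (1.48 to 1.76), and from 35.1% to 66.5% of members. Rspo3, a secreted protein that strengthens Wnt signals (chromosome 10, 29452416 to 29535867), went from 35.1 to 118 CPM, with a ratio of 1.74 (1.45 to 2.07). Fgf10, a mesenchymal growth factor for epithelium, went from 14.97 to 54.7 CPM.

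Of the risers, 3 were receptors. Chrm3, a muscarinic acetylcholine receptor, had 30.3 CPM in control and 133 CPM in knockout members. Lifr, the receptor for leukaemia inhibitory factor, had 27.3 and 96.7 CPM, and P2ry14, a receptor for UDP-sugars, had 2.60 and 20.4 CPM. The G protein regulator Rgs6 had 5 UMIs in 2 control cells and 91 UMIs in 34 knockout cells. The others were Cfi, the complement inhibitor factor I (6.83 and 31.7 CPM), Dio3, which inactivates thyroid hormone (11.7 and 48.6 CPM), B3galt1, a galactosyltransferase (37.7 and 129 CPM), Ogfrl1 (17.9 and 68.3 CPM) and Dchs2 (3.25 and 16.9 CPM).

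The fallers, besides Tbx15, Hoxc8, Hoxc9 and Emx2, included matrix and lipid genes. Ccl8, a chemokine for monocytes and T cells (chromosome 11, 82115185 to 82116799), went from 130 to 8.69 CPM, with a ratio of -3.86 (-4.43 to -3.41), and from 33.1% to 6.33% of members. All other kept barcodes had 58.4 and 68.3 CPM of it. Prg4 went from 119 to 12.9 CPM and Akr1c18 from 39.4 to 3.99 CPM. Col24a1, a fibrillar collagen, went from 48.8 to 5.64 CPM, and Tgfbi, a matrix protein named for its induction by TGF-beta, from 56.9 to 8.69 CPM. Mgll, the lipase of monoacylglycerols, went from 46.5 to 7.04 CPM and Mmp27, a matrix metalloproteinase, from 34.8 to 5.17 CPM. Kcnj8, a potassium channel subunit, Pcdh20, a protocadherin, and Adamts19, a metalloproteinase, fell by 2.81, 2.99 and 2.56 on the log2 scale.

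**Figure D2:**
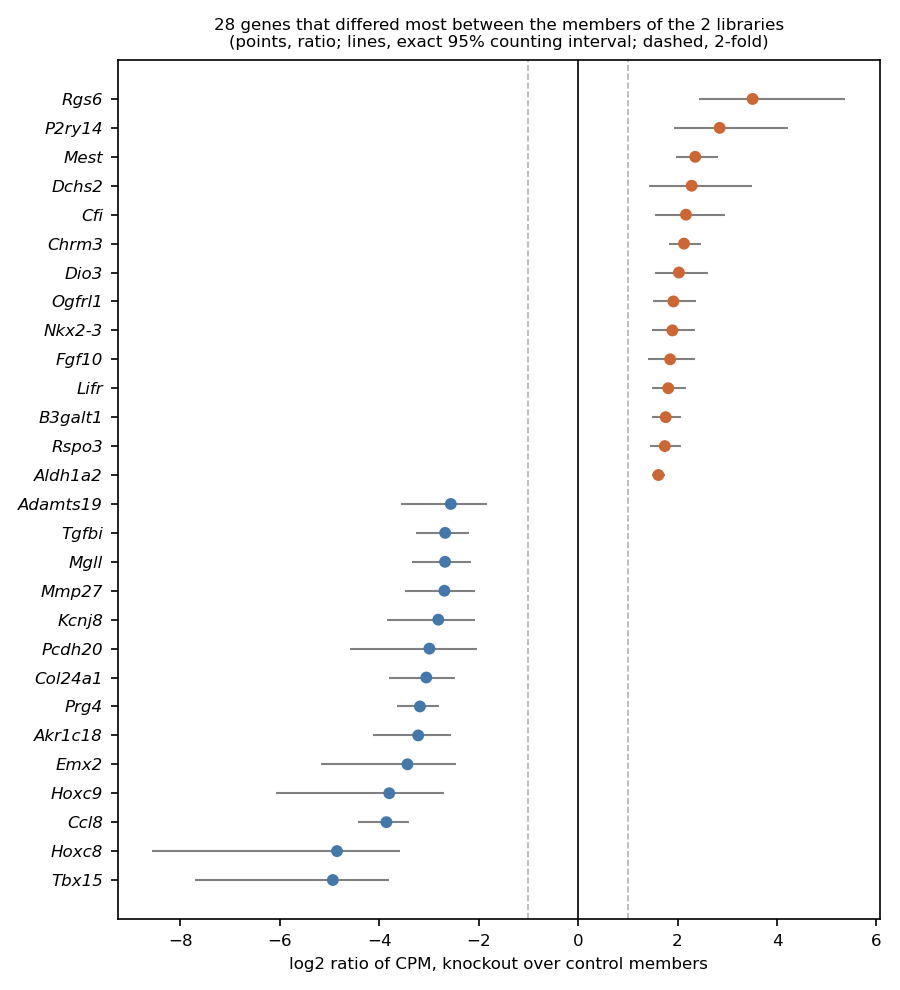
Log2 ratio of CPM, knockout over control members, for the 28 genes that differed most (x axis; points, ratio; lines, exact 95% counting interval; dashed lines, 2-fold). The 14 risers run from 1.62 (Aldh1a2) to 3.51 (Rgs6), and Tbx15, at the bottom, stands at -4.93.

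Leaving out the 106 control and 13 knockout cells with Tbx15, Hoxc8, Hoxc9, Hoxc10 or Emx2 kept 193 and 461 members, an alternative chosen after the data had been seen. Among 9177 genes with enough UMIs, against 9812 in all members, it gave 193 risers and 65 fallers. Of the risers 133 were among the 295, and of the fallers 46 were among the 147. Ccl8 then stood at a log2 ratio of -2.41, Prg4 at -1.97 and Tgfbi at -1.76. Akr1c18 stood at -0.02 and Pcdh20 at -0.42, so neither was past 2-fold without those cells. Among the risers, Mest stood at 1.53, Fgf10 at 1.37 and Nkx2-3 at 1.20, while Aldh1a2 stood at 0.85 and Rspo3 at 0.99, just short of 2-fold. Only cells with a counted UMI of these genes were left out, so cells of the same kind may remain. Detection depends on depth, as thinning lowered the control share with such a UMI from 35.5% to 9.62%.

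Genes were next counted by list, with the 3.01% of all genes that rose and the 1.5% that fell as the background and the median of 0.09 over all genes beside each list's median. A gene counted as above the free RNA level where members of the library with the higher value had at least 0.5 times the CPM of all other kept barcodes. The 34 tested genes of the adventitial list held 0 risers and 0 fallers, with a median of -0.02. Its summed level was 20657 CPM in control and 21123 CPM in knockout members. Mfap5, a microfibril protein, stood at 1817 and 1955 CPM, and Ly6a, a surface protein of many progenitors, at 2427 and 2000 CPM. The transcription factor Ebf1 had 930 and 1507 CPM, the highest ratio of the list at 0.70, and Igfbp5 had 241 and 128 CPM, the lowest at -0.91.

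Chemokines and inflammatory genes moved unevenly. Of 13 tested chemokines, 2 rose and 4 fell, with a median of -0.26. Ccl2 and Ccl7, which draw monocytes, went from 225 to 34.0 CPM and from 209 to 36.9 CPM, with ratios of -2.72 (-2.99 to -2.47) and -2.50 (-2.77 to -2.25). The other 2 fallers were Ccl8 and Cxcl13, a B cell attractant that went from 121 to 27.0 CPM. Ccl11, an eosinophil attractant on the same stretch of chromosome 11 (82057823 to 82062955), had 277 and 283 CPM. Cxcl12, which retains leukocytes and progenitors, had 606 and 381 CPM, within 2-fold. Cxcl14 rose from 144 to 357 CPM, and Cxcl9 from 20.8 to 50.3 CPM, although Cxcl9 was below the free RNA level.

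A few cells held many of the UMIs of the inflammatory genes. The 10 highest cells held 80.1% of the control members' Ccl2 UMIs, 65.9% of Ccl7, 47.0% of Ccl8 and 84.1% of Cxcl13. Saa3, an acute-phase serum amyloid, went from 1469 to 133 CPM, with 85.9% of its control UMIs in 10 of 299 cells. Slpi, a secreted inhibitor of leukocyte proteases, went from 359 to 3.76 CPM, with 95.7% in 10 cells. The thinned share of members with Ccl2 was 8.93% in control and 1.96% in knockout (unthinned 17.4% and 7.59%), against 7% and 13.4% of tumour cells and 2.90% and 1.88% of T cells. The share in knockout members was thus below that of tumour cells and close to that of T cells.

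The inflammatory fibroblast list held 17 tested genes, with 0 risers and 3 fallers, Ccl2, Ccl7 and Saa3, and a median of -0.35. C3, its most abundant gene, had 5478 CPM in control and 7620 CPM in knockout members. Svep1, a large matrix protein, had 525 and 1030 CPM and Hp, haptoglobin, 520 and 676 CPM. Il6 had 6.83 and 12.9 CPM. Cytokines that act on leukocytes held 1 riser, Il15, among 9 tested, at 6.51 and 13.6 CPM, and the alarmin Il33 stood at 162 and 236 CPM, with a list median of 0.54.

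Complement genes were high in members of both libraries. Of 11 tested, 1 rose, Cd59a, which blocks the membrane attack complex, from 30.3 to 69.3 CPM, and 0 fell, with a median of 0.16. Serping1, the inhibitor of the first complement proteases, had 2558 and 3093 CPM, and C4b had 1320 and 1333 CPM. A C3 UMI remained in 92.8% of control and 96.5% of knockout members thinned to 2000 UMIs, against 3.62% and 4.73% of T cells.

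Among 20 tested type I interferon response genes, 0 rose and 3 fell, with a median of -0.40. Isg15, a ubiquitin-like protein, went from 130 to 46.5 CPM, Zbp1, a nucleic acid sensor, from 67.4 to 24.4 CPM and Usp18, which removes Isg15 from proteins, from 20.8 to 8.92 CPM. Only 11 of the 20 were above the free RNA level, and Isg15 and Zbp1 were below it. The 20 tested interferon gamma genes held 2 risers, Cxcl9 and Cd274, and 0 fallers, with a median of 0.01, and 2 were above the free RNA level. The 15 MHC class I genes held 0 of either, with a median of -0.03. B2m, the shared light chain, had 1653 and 1616 CPM.

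Matrix genes were mostly within 2-fold. Of 15 tested collagen genes other than those of the rule, 1 rose and 0 fell, with a median of -0.18. The riser, Col4a1 of basement membrane, went from 247 to 506 CPM, and its partner Col4a2 from 136 to 256 CPM, with a ratio of 0.91. Col5a2 had 1228 and 933 CPM and Col14a1 had 1591 and 1511 CPM. The 19 elastic fibre genes held 0 risers and 0 fallers, with a median of 0.15, and Fbn1, the fibrillin of microfibrils, had 1792 and 2245 CPM. Of 13 proteoglycans, 2 rose, Fmod and Ogn, and 2 fell, Prg4 and Omd. Ogn, osteoglycin, went from 613 to 1234 CPM, and Fmod, fibromodulin, from 18.9 to 54.2 CPM, while Omd went from 12.04 to 4.23 CPM.

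Of 25 matrix proteases and inhibitors, 1 rose, and the median was -0.10. Serpine2, an inhibitor of thrombin and plasminogen activators, went from 80.7 to 187 CPM. Timp1, an inhibitor of metalloproteinases, fell from 514 to 222 CPM. The 21 genes of collagen folding and the endoplasmic reticulum held 0 risers and 0 fallers, with a median of -0.16. Sparc, a collagen-binding protein, had 11609 and 7596 CPM.

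Myofibroblast genes other than those of the rule held 0 risers and 2 fallers among 21, with a median of 0.09. Cthrc1 went from 310 to 103 CPM and Tnc, tenascin C, from 42.3 to 6.57 CPM, while Fn1, fibronectin, had 4312 and 3525 CPM and Bgn, biglycan, 1518 and 1916 CPM. TGF-beta and activin genes held 0 risers among 19, with a median of 0.17, and Tgfbi was among the fallers. Tgfb2 had 82.3 and 119 CPM and Tgfbr2, a receptor, had 720 and 673 CPM. The 10 BMP genes held 2 risers, Bmp6 (9.76 and 33.6 CPM) and the BMP-binding Bmper (184 and 404 CPM), and 1 faller, the antagonist Chrdl1 (24.4 and 5.401 CPM), with a median of -0.22.

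Growth factors for epithelium and vessels held 2 risers and 0 fallers among 17, with a median of 0.49, and 12 were above the free RNA level. Intervals lay above 0 for 10 of the 17 and below 0 for 2. Over all 9812 genes, 6552 intervals spanned 0. Ptn went from 183 to 493 CPM, with a ratio of 1.43 (1.30 to 1.57), beside Fgf10. Igf1, insulin-like growth factor, had 724 and 954 CPM, and Vegfd, a lymphatic growth factor, had 188 and 293 CPM. The 5 tested IGF binding proteins held 0 of either, with a median of -0.05.

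Wnt genes were examined because Porcn attaches the lipid that Wnt ligands need for secretion. Of 19 Wnt ligand genes, 5 had enough UMIs in members, of which 1 rose and 1 fell. The median was 0.16, and it changed sign in 6 of 14 alternatives, down to -0.37 with a minimum of 20 UMIs. Wnt2 went from 70.3 to 21.4 CPM, with a ratio of -1.71 (-2.09 to -1.36), and Wnt5a from 27.7 to 57.8 CPM, with a ratio of 1.06 (0.70 to 1.44). Wnt4 had 123 and 147 CPM and Wnt9a had 18.5 and 9.86 CPM. Thinned shares followed the same directions, with Wnt2 in 7.90% and 3.49% of members (unthinned 23.1% and 12.03%) and Wnt5a in 5.15% and 11.3% (unthinned 20.7% and 31.9%). The share of tumour cells with Wnt5a was 7.10% and 8.10% after thinning, so the share in control members was no higher than there. Within the cells with Nkx2-3 or Barx1 alone, Wnt2 stood at 38.9 and 24.0 CPM and Wnt5a at 37.7 and 51.7 CPM, each within 2-fold.

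Of the secretion genes, 1 of 5 rose, which was Porcn itself, with 17 UMIs in 17 control and 49 UMIs in 44 knockout members. Its level was 5.53 and 11.5 CPM, with a ratio of 1.02 (0.24 to 1.95). Wls, the carrier of Wnt proteins to the surface, had 228 and 258 CPM. Rspo1 had 33.2 and 50.02 CPM beside the riser Rspo3. The 5 secreted antagonists held 0 risers and 0 fallers, with a median of -0.49, which was -0.04 without the cells with Tbx15, Hoxc8, Hoxc9, Hoxc10 or Emx2. Sfrp2 had 945 and 593 CPM, Sfrp1 524 and 845 CPM, and Dkk2 78.8 and 42.5 CPM. Of 11 receptors, 1 rose, Fzd8, from 3.90 to 10.3 CPM, and the median of 0.32 was 0.03 without those cells. The 11 tested Wnt target genes held 0 of either, with a median of 0.02, and Axin2, the most general of them, had 24.7 and 27.7 CPM.

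Lipid and retinoid genes included further risers. Of 14 adipogenic and lipid genes, 4 rose and 1 fell, with a median of 0.32. Pparg, the regulator of fat cell formation, went from 4.56 to 17.4 CPM, Lpl, lipoprotein lipase, from 284 to 719 CPM, Fabp4 from 30.3 to 119 CPM and Fabp5 from 10.1 to 101 CPM. Apod, a lipid carrier, went from 364 to 148 CPM. A single knockout member held 379 of the 505 Fabp4 UMIs and 361 of the 432 Fabp5 UMIs there. The same cell held all 12 UMIs of Adipoq and 24 of the 25 of Plin1, defining genes of mature fat cells, whose marker sum was 0.976 CPM in control and 9.16 in knockout members. Without this cell, an alternative chosen after the data had been seen, Fabp4 stood at 29.8 CPM and Fabp5 at 16.8 CPM in knockout, log2 ratios of -0.024 and 0.72, so neither was past 2-fold. Pparg and Lpl then stood at 1.72 and 1.26. Aldh1a2 was the single riser of 11 retinoid and steroid genes, with 0 fallers and a median of 0.29. Of 29 fibroblast transcription factors, 1 rose, Tcf21, and 5 fell, Tbx15, Tbx18, Twist1, Twist2 and Meox2. Twist1, a regulator of mesenchyme, went from 105 to 40.4 CPM, and Osr1 had 173 and 172 CPM.

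Single cells bore on other list genes less. Of the 50 genes of all lists that were past 2-fold, 39 still were when the cell with most of their UMIs was left out of the library with the higher level, a choice made after the data had been seen. Besides Fabp4 and Fabp5, Cd274, Il15, Tcf21, Cxcl9, Porcn, Timp1, Col4a1 and Ogn then fell short of it, at log2 ratios from 0.91 to 0.995 in the risers and -0.96 in Timp1.

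Stress and growth lists had few calls. The 19 immediate early and heat shock genes held 0 risers and 1 faller, Ier3, at 122 and 41.6 CPM, with a median of -0.20, and Fos had 439 and 381 CPM. The 18 hypoxia and glycolysis genes held 0 of either, with a median of -0.14, and 4 were above the free RNA level. Of 5 tested proliferation genes, 1 fell, Mcm3, from 13.7 to 4.46 CPM. A thinned Mki67 UMI was found in 3 of 291 control members, or 1.03% (0.213 to 2.98). It was found in 1 of 459 knockout members, or 0.218% (0.00552 to 1.21), and the 2 intervals overlapped. The list of antigen-presenting and mesothelial genes held 0 risers and 2 fallers among 8, Slpi and Nkain4, with a median of -0.50, and 3 were above the free RNA level.

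**Figure D3:**
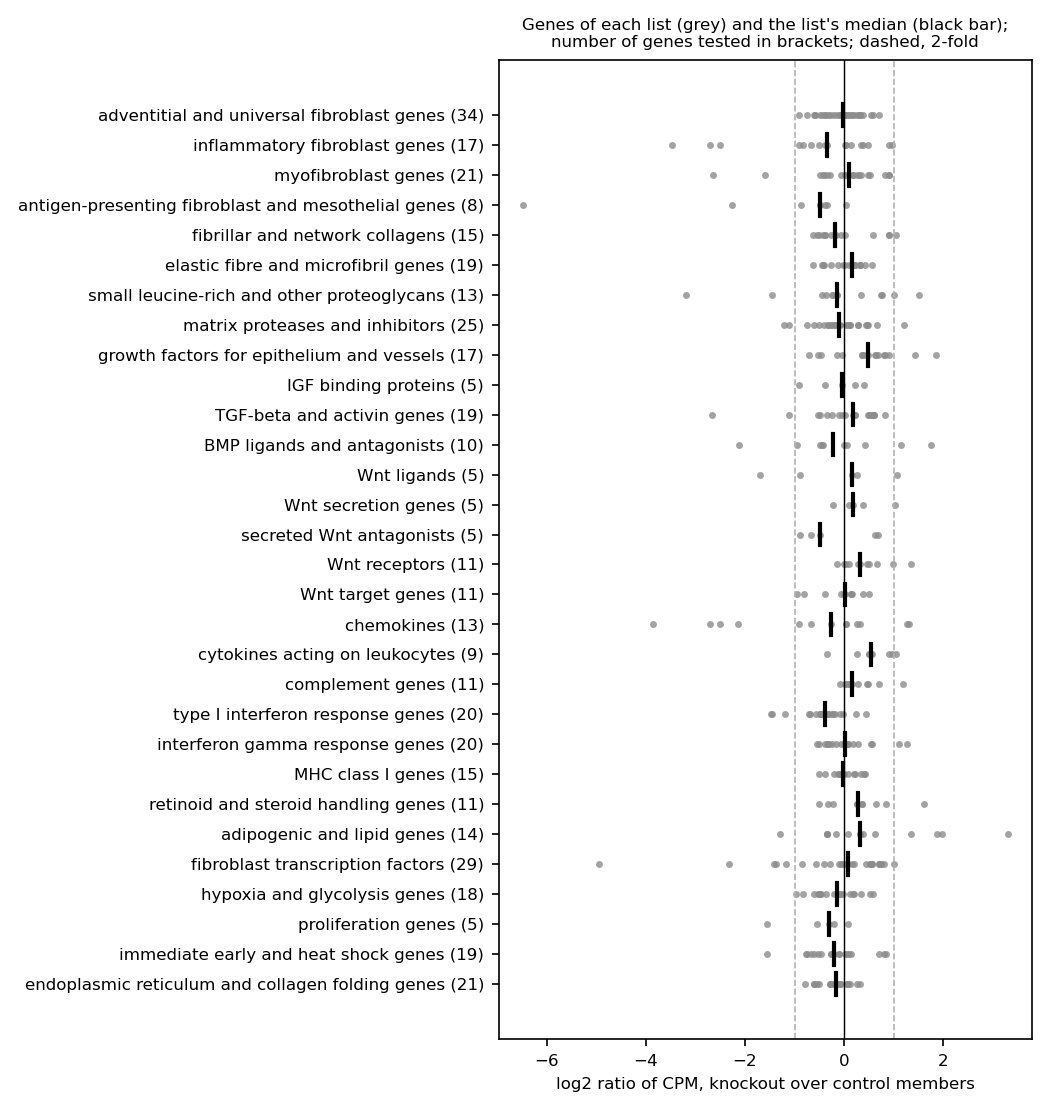
Log2 ratios, knockout over control members, of the tested genes of 30 lists (grey points; x axis) and each list's median (black bar), with the number of genes tested in brackets and dashed lines at 2-fold. The medians lie between -0.50 and 0.54, and single genes such as Slpi (-6.48) and Tbx15 (-4.93) lie far to the left of their lists.

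Members were also set beside the 50 control and 34 knockout myofibroblast-leaning fibroblasts, as a description, since the rule divided the same cells. Of 7579 genes with at least 50 UMIs over both kinds of cell in each library, 225 were at least 2-fold higher in members in both libraries (2.97%) and 142 at least 2-fold lower (1.87%). The adventitial list had 23 of 34 genes among the first and 0 among the second. Of 19 myofibroblast genes that the rule did not use, 0 were among the first and 11 among the second, and of 11 complement genes 6 were among the first.

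Opcml, a neuronal adhesion protein, stood at 257 CPM in control members and 5.19 CPM in myofibroblast-leaning cells, and at 168 and 2.38 CPM in knockout. C7, a late complement protein, had 73.2 and 68.6 CPM in members and no UMI in myofibroblast-leaning cells of either library. With 3 counts as the floor of those cells, it was at least 18.8-fold higher in control and at least 9.61-fold higher in knockout members. Efemp1, an elastic fibre protein, had 572 against 71.4 CPM in control and 668 against 92.8 CPM in knockout. Ackr3, a scavenging receptor for Cxcl12, had 399 against 80.5 CPM and 238 against 14.3 CPM. The transcription factor Klf4 had 465 against 83.1 CPM and 313 against 26.2 CPM.

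Lower in members were Cald1 and Palld of the actin cytoskeleton. Cald1, caldesmon, stood at 598 CPM in control members and 1332 CPM in myofibroblast-leaning cells, and at 671 and 1566 CPM in knockout. Palld, palladin, had 201 against 467 CPM and 252 against 745 CPM. Ctsc, a lysosomal protease, had 18.2 against 118 CPM and 20.4 against 148 CPM, and Spon1, a matrix protein, 116 against 321 CPM and 162 against 652 CPM. Control myofibroblast-leaning cells also had Tbx15, at 19.5 CPM, and Hoxc8, at 28.6 CPM, both with 0 UMIs in the 34 knockout cells.

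**Figure D4:**
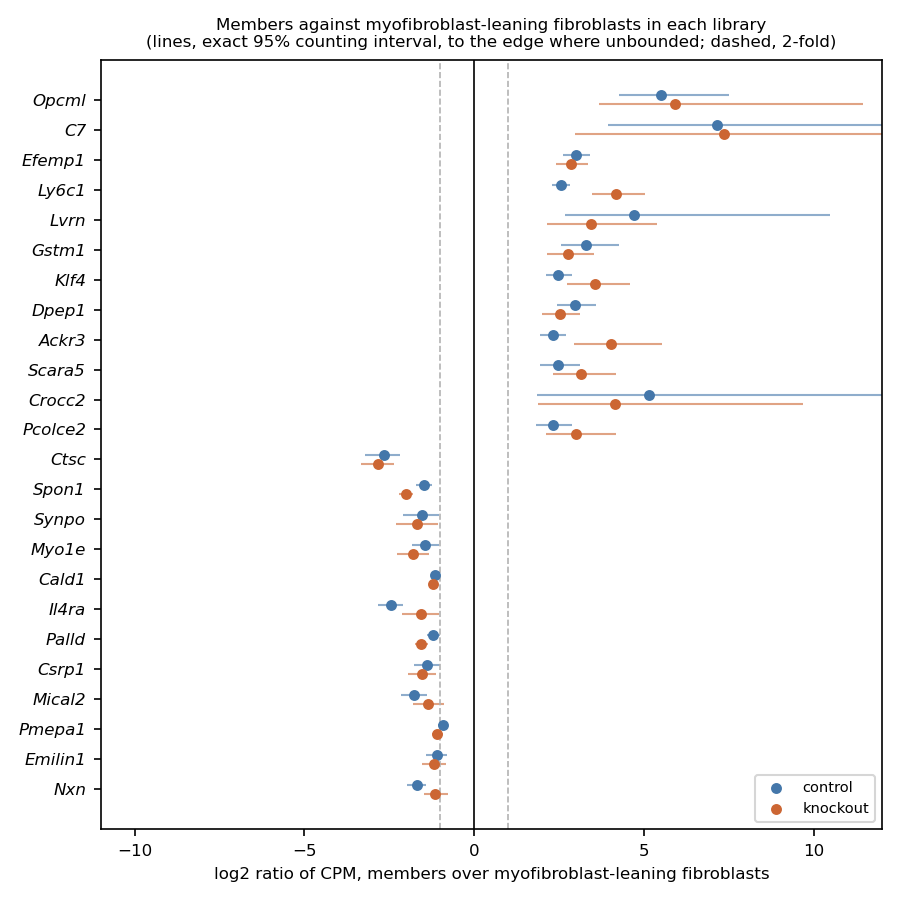
Log2 ratio of CPM, members over myofibroblast-leaning fibroblasts (x axis), in the control and knockout libraries, for 12 genes higher and 12 lower in members in both (lines, exact 95% counting interval; dashed lines, 2-fold). The ratios of Efemp1 are 2.99 and 2.84 and those of Ctsc -2.66 and -2.83; lines reach the right edge where the myofibroblast-leaning cells had no UMI, and the points of C7 then depend on the UMI added.

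Pi16 and Col15a1, which mark 2 widespread states of fibroblasts, were not exclusive. After thinning, both were found in 8.93% of control members (5.92 to 12.8) and 19.6% of knockout members (16.1 to 23.5). Pi16 alone was found in 43.3% and 35.9%, Col15a1 alone in 12.4% and 16.8%, and neither in 35.4% and 27.7%. Before thinning, Pi16 was found in 68.9% and 74.9% of members and Col15a1 in 47.5% and 65.2%. T cells had Pi16 in 1.45% and 0.903% and Col15a1 in 0% and 0.834% after thinning.

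Members with a Pi16 UMI, 206 in control and 355 in knockout, were set beside the 93 and 119 without one, as a description. Median depths were 9830 and 6483 UMIs in control, and 9126 and 7120 UMIs in knockout. Col8a1, a short-chain collagen of vessels, stood at 195 against 36.9 CPM in control and at 199 against 5.36 CPM in knockout. Cilp, a cartilage matrix protein, had 371 against 97.6 CPM and 517 against 108 CPM, and Mfap5 had 2167 against 749 CPM and 2283 against 782 CPM. Dpp4, a peptidase of interstitial progenitors, had 238 against 44.8 CPM and 216 against 114 CPM. Cells without Pi16 had more Fabp4, with 67.3 against 18.1 CPM in control and 451 against 25.6 CPM in knockout. They also had more Rspo3, with 52.7 against 29.4 CPM and 239 against 84.5 CPM. Col8a1, Cilp and Mfap5 were thus higher with Pi16, and Rspo3 higher without it, in both libraries. Fabp4 was higher without Pi16 in control. Of the 420 Fabp4 UMIs in knockout cells without Pi16, 379 lay in the cell that held all Adipoq UMIs. The knockout difference in Fabp4 was not tested without that cell.

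**Figure D5:**
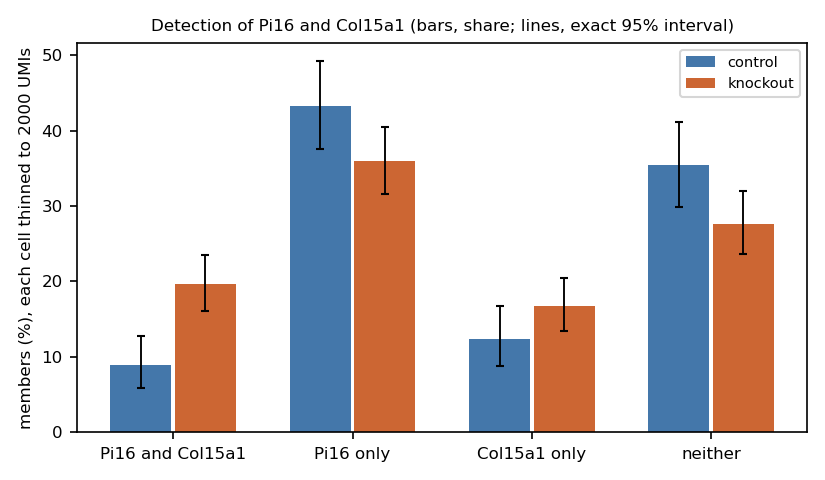
Share of members (%) with a UMI of Pi16, of Col15a1, of both or of neither in the control and knockout libraries, each cell thinned to 2000 UMIs (bars from 0, share; lines, exact 95% interval). Cells with both make up 8.93% of control and 19.6% of knockout members.

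Marker genes of other cells were present in members, and pericyte, endothelial and dendritic sums were higher there than in all other kept barcodes. Epithelial markers summed to 177 CPM in control and 128 CPM in knockout members, against 5754 and 5260 in other barcodes, and 17.1% and 9.70% of members had at least 3 such UMIs. Mesothelial markers summed to 80.7 and 84.8 CPM, against 331 and 223, with Upk3b at 0 in both. Most of the mesothelial sum was Wt1, at 45.2 and 71.2 CPM, found in 34.1% and 47.5% of members. The rule limited both of these genes. Pericyte markers summed to 147 and 61.8 CPM, with Cnn1 at 0 in both. The highest of them in control were Ndufa4l2 (66.7 and 11.7 CPM), Abcc9 (30.3 and 15.03 CPM) and Kcnj8 (24.7 and 3.29 CPM), a faller named above. In knockout members Des was the highest, at 20.7 CPM against 14.6 CPM in control. Endothelial markers summed to 49.8 and 63.9 CPM, and most was Tek, at 34.8 and 47.7 CPM. Cdh5, Emcn and Pecam1 were at 0 in both, Pecam1 because the rule required it. Macrophage markers summed to 34.5 and 33.8 CPM, neutrophil markers to 48.5 and 14.3, T and NK markers to 1.30 and 10.6, and Schwann cell markers to 125 and 149 with Sox10 at 0. Of the Schwann sum most was Ncam1, at 116 and 137 CPM. The dendritic sum was 60.9 and 71.2 CPM, against 16.3 and 32.3 in other barcodes, and most was Fscn1. Fibroblasts also express Ncam1 and Fscn1. The part of all these marker genes in the differences was not tested.

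RNA of acinar cells differed between the libraries. The 9 acinar markers had 55 UMIs in control and 3825 UMIs in knockout members, of which 3411, 193 and 20 lay in the 3 highest cells. The sum was 17.9 and 898 CPM, and 47.2 CPM in knockout without those 3 cells. Leaving them out, an alternative chosen after the data had been seen, gave 280 risers and 145 fallers among 9778 genes tested.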

How the data were processed

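Single-cell RNA libraries of pooled tumours were analysed, 1 for each genotype. The deposited values were raw UMI counts per gene and barcode, and the file headers name Cell Ranger 8.0.0, while the submitters' processing notes list Cell Ranger 3.1.3 and mm10. Per the labels' protocols, digestion used 1.5 mg/mL collagenase V with 0.1 mg/mL DNase I at 37 °C during 30 min, and libraries were made with the 10x 3′ v3.1 kit. The files held 32285 gene identifiers, of which 32158 were found in GENCODE M21 on GRCm38, and 31436 had the same symbol. Gene positions come from that match.

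From the deposited counts, members were selected by the rule given in the report. UMIs were summed per library and scaled to CPM, and log2 ratios added 1 UMI at the mean of the 2 totals. Genes with at least 50 UMIs over both libraries' members were compared. Ratios have exact conditional intervals, sums Poisson intervals and shares Clopper-Pearson intervals, all at 95%. With 1 library per group no test was made. Thinning drew 2000 UMIs per cell with seed 0. Doublets were called per library with Scrublet in scanpy 1.11.5 at an expected rate of 0.08 and kept in the main values. The calculation of ratios was tested on simulated data. T cells had at least 2 Cd3d, Cd3e and Cd3g UMIs, 1 or more of Ptprc and at most 20 keratin UMIs. Other tools were python 3.11.15, numpy 2.4.6, pandas 2.3.3, scipy 1.17.1, anndata 0.12.19 and matplotlib 3.10.9.

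Named genes were the 14 highest and 14 lowest by the bound of the interval nearest to 0. They left out genes of the rule, ribosomal, mitochondrial, predicted, receptor segment and sex-linked marker genes, genes below the free RNA level and genes with over 20% of the higher library's UMIs in 1 cell. The 12 highest and 12 lowest against myofibroblast-leaning fibroblasts followed the same rule in both libraries. From each of 31 lists the most abundant genes and the extreme risers and fallers were named, and every riser and faller where these were few. A further gene of these lists is not reported here. The members and lists were chosen with earlier results of these data known. Alternatives changed the cell filter, doublets, the limits of the rule, averaging, depth, centring, the UMI minimum and the added UMI.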

Additional observations from a re-analysis of the deposited data

How the results depend on the processing

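No paired analysis was possible because each genotype had 1 pooled library, and for the same reason no replicate could be left out. Requiring no UMI of Upk3b, Lrrn4, Wt1 or Msln kept 187 control and 241 knockout members, lowered the ratio of shares to 1.39 and left 66 genes lower than in myofibroblast-leaning cells. It had 236 risers and 134 fallers among 7700 genes tested, against 9812 tested in all members. Of its risers and fallers, 107 and 74 were among the 295 and 147 of all members. Thinning to 2000 UMIs gave 635 risers and 316 fallers, of which 177 and 98 were among them, and 427 genes higher than in myofibroblast-leaning cells. A minimum of 20 UMIs gave 510 risers and 290 fallers, with 361 genes higher and 219 lower than in myofibroblast-leaning cells, and a minimum of 100 UMIs gave 162 risers, 67 fallers and 87 lower genes. The minimums changed how many genes were tested, to 11648 at 20 UMIs and 7728 at 100 UMIs, from 9812 at 50 UMIs. Leaving out the cells with Tbx15, Hoxc8, Hoxc9, Hoxc10 or Emx2 gave 193 risers and 65 fallers among 9177 genes tested. The ratio of shares was then 2.56, because the control library lost 106 of 299 members.

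Of 60 recomputed counts and shares, 15 went beyond 1.5 times the count or outside the share's interval and 45 stayed within. Of 336 recomputed ratios of named genes, 51 left the main counting interval, and 4 of them went to 0, those of Tbx15, Hoxc8, Hoxc9 and Emx2, which had been removed by construction. Fabp4 went to -0.024 without 1 knockout cell. Of 419 recomputed list medians, 28 moved by more than the median half-width of their genes' intervals, and 36 changed sign, most of them by less than that. The median of the Wnt ligands was -0.37 with a minimum of 20 UMIs, -0.29 without the cells with Tbx15, Hoxc8, Hoxc9, Hoxc10 or Emx2, -0.25 with Msln at 0, -0.22 with the stricter margin between adventitial and myofibroblast genes and as a mean over cells, and -0.06 after thinning. The cause of the other moves was not tested. At 3 UMIs or fewer in a library, as for Tbx15 and Hoxc8 in knockout members, depth leaves the size of a ratio wide.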

Other observations

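Genes that differed between the libraries within the cells with Nkx2-3 or Barx1 alone, 85 in control and 270 in knockout, are given as values. Nkx2-3 and Barx1 themselves were in unlike proportion in the 2 libraries' cells, as given above. Cxcl14 stood at 48.3 and 304 CPM, a log2 ratio of 2.64 (2.20 to 3.14), which was more than the 1.31 over all members. Cxcl13 stood at 238 and 33.3 CPM and Ccl2 at 123 and 36.7 CPM, log2 ratios of -2.82 (-3.21 to -2.47) and -1.72 (-2.15 to -1.33). Few cells set these levels, with Cxcl13 in 8 control and 5 knockout cells and Ccl2 in 10 and 21. A single control cell held 133 of the 202 Cxcl13 UMIs there. Over all knockout members, 1 cell held 69.6% of the 115 Cxcl13 UMIs. Saa3 stood at 439 and 123 CPM. Cthrc1 had the reverse of its direction over all members, at 60.1 and 98.2 CPM, a log2 ratio of 0.70 (0.27 to 1.17) against -1.59. Akr1c18 stood at 82.6 CPM in the control cells with the first set of position genes, 2.36 CPM in those with Nkx2-3 or Barx1 and 6.13 CPM in those with neither.

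Cells with neither set of position genes, 108 in control and 191 in knockout, had median depths of 5914.5 and 6855 UMIs, lower than the cells with either set alone. Control cells with neither had the highest Saa3, at 2798 CPM, and the highest Slpi, at 644 CPM, against 148 and 2.78 CPM in the knockout cells with neither. Their Aldh1a2 stood at 245 and 467 CPM.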
